A study of Mus musculus with 59 samples.

Results

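The change in gene expression that an expanded *Atxn1* allele brings was compared between cerebellum and cortex, over 16 of the 59 RNA-seq libraries of the study. By their labels, the libraries came from 4 WT mice and 4 *Atxn1* 154Q/2Q mice (called 154Q below), with 1 cerebellar and 1 cortical library for each mouse. The 2 libraries labelled WT-221 do not come from 1 mouse, as given below. A 154Q mouse is a knock-in that carries an expanded CAG repeat in 1 of its *Atxn1* alleles, under the control of the gene's own promoter, so the mutant protein is made wherever *Atxn1* is expressed. A further genotype, the expanded allele with added amino acid substitutions (154Q-AXH), is set beside these genotypes further on. All mice were 10 weeks old and of C57BL/6 background, and polyA RNA was sequenced from whole dissected regions. Of 20606 genes tested, 585 (2.84%) had a 154Q minus WT change that differed between the regions, and 17 of these (0.0825% of all genes tested) changed in opposite directions.

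ATXN1 is a nuclear protein that binds RNA and transcription factors, among them the repressor Capicua (CIC), and its polyglutamine expansion causes spinocerebellar ataxia type 1. The disease is known above all for the loss of cerebellar Purkinje cells, the sole output neurons of the cerebellar cortex, but ATXN1 is expressed across the brain. The cerebellum is dominated by granule cells with few projection neurons, whereas the cerebral cortex holds layers of glutamatergic projection neurons and several kinds of interneurons, so 1 allele acts on different sets of cells in each region. In whole-tissue RNA, fewer cells of a type and less RNA per cell cannot be told apart.

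Cerebellar libraries held 64.4 to 98.5 M read pairs counted on genes (median 82.1 M) and cortical libraries 34.9 to 46.2 M (median 41.8 M), so cerebellar values rest on the same number of mice and on more counts. Values below are in CPM, a gene's count divided by the library's total in M read pairs and scaled between libraries by TMM. The main markers matched the region labels. *Tbr1*, a transcription factor of cortical projection neurons, did not exceed 1.02 CPM in any cerebellar library, and *Gabra6*, a GABA receptor subunit of granule cells, did not exceed 5.79 CPM in any cortical library. Cortical library WT-70 stood out for the hippocampal markers *Lct* (9.88 CPM against 1.04 to 1.43 in other cortices) and *Dsp* (8.86 against 0.342 to 2.96). Cortical library WT-77 stood out for *Gabra6* and for the cerebellar marker *Cbln3* (10.1 CPM against 0.603 to 1.92). The part of neighboring tissue in the results was not tested. *Atxn1* itself was not called in either region (log2 changes of 0.023 ± 0.095 and 0.14 ± 0.097, SE), and counts per gene do not show the repeat. The cortical library labelled WT-221 held 484 CPM of *Xist* and 0.923 CPM of the Y-linked *Ddx3y*, while the cerebellar library with that label held 1.77 and 157 CPM, so that these 2 libraries do not come from 1 mouse. For the cortical libraries labelled 154Q-76 and 154Q-AXH-207, names and labels of the deposited data are crossed, and the labels were followed. Choroid plexus genes varied between libraries of a region, and *Ttr*, which encodes transthyretin, ranged from 12.1 to 2703 CPM over the 8 cerebellar libraries. The part of dissection was not tested.

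Within the cerebellum, 654 genes (3.17%) differed between 154Q and WT mice at an adjusted p under 0.05 (229 higher, 1.11%, and 425 lower, 2.06%, in 154Q mice), and within the cortex 1774 genes (8.61%) did so (652 higher, 3.16%, and 1122 lower, 5.45%). These counts come from a quasi-likelihood test (edgeR, p values adjusted after Benjamini and Hochberg) in 1 model of the 4 groups, and the same model gave the test of the difference between the regions. A gene called in 1 region and not in the other need not differ between them: of 491 genes called in the cerebellum alone, 116 differed, and of 1611 called in the cortex alone, 394 differed. Of 163 genes called in both regions, 146 changed in the same direction and 17 in opposite directions, and the difference was called for all of those 17. Another 10 genes were lowered in both regions to different degrees, and 48 differed between regions although neither change passed alone. The change was more positive in cerebellum than in cortex for 404 of the 585 genes (69.1%), and 301 genes were called as lowered in cortex alone. Fitted changes had opposite signs for 443 of these 585 genes (75.7%), which were picked for a difference. Only 17 of them passed in both regions. Of the 585 genes, 2 lie within 10 Mb of *Atxn1*, and neither is named here.

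**Figure D1:**
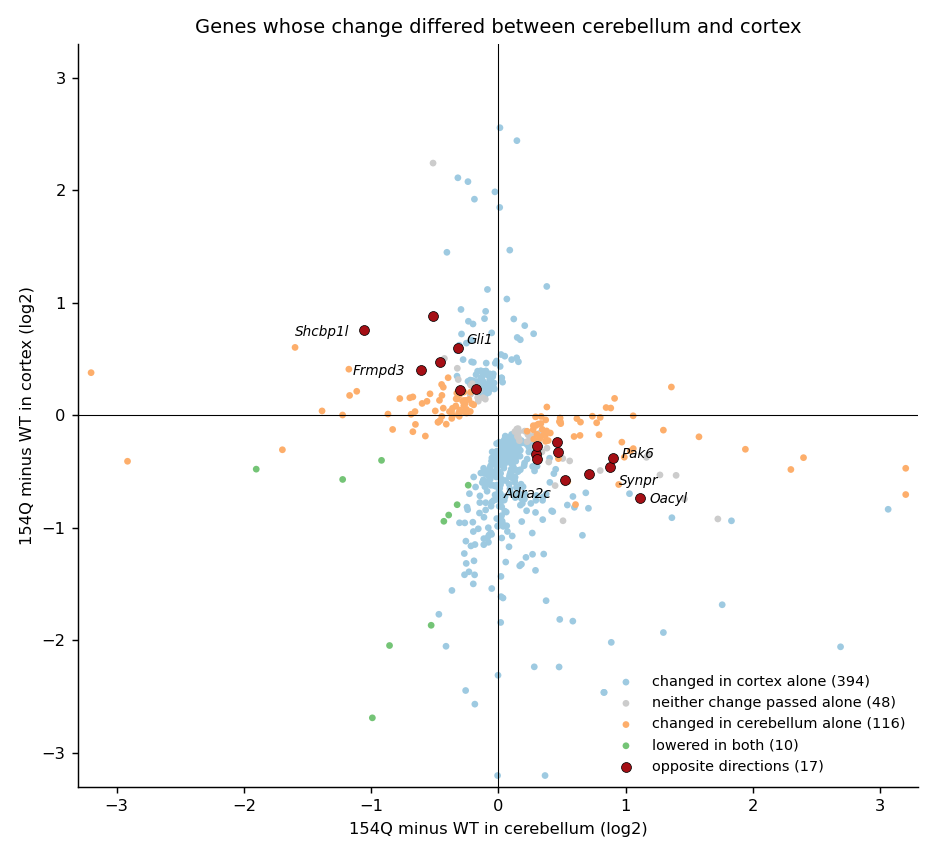
Each point is 1 of the 585 genes whose 154Q minus WT change differed between the regions, with the log2 change in cerebellum on the horizontal axis and in cortex on the vertical axis; colors give the class, and 5 genes beyond 3.2 are drawn at the edge. The 17 genes with opposite changes lie in the lower right (10) and upper left (7), and genes called in 1 region alone mostly lie near that region's own axis, with median sizes of 0.46 in cerebellum and 0.13 in cortex for the cerebellum-only genes and of 0.11 and 0.52 for the cortex-only genes.

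At the threshold, *Adcyap1r1*, a receptor for the neuropeptide PACAP, was just inside with a difference of 0.37 (adjusted p = 0.0499, edgeR), and *Dolpp1*, an enzyme of protein glycosylation, was just outside with -0.27 (adjusted p = 0.0501). The smallest difference among the 585 genes was 0.24 in size and the median was 0.56, while the median standard error of the difference over all genes was 0.16. Of the genes with opposite changes, *Kcnk2* was the last to pass in both regions (adjusted p = 0.0465 in cortex), and *Stx1a*, a syntaxin of the synaptic vesicle fusion machinery, narrowly missed (0.33 in cerebellum with adjusted p = 0.0495, -0.20 in cortex with adjusted p = 0.0554).

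The 10 genes that rose in the cerebellum of 154Q mice and fell in their cortex were *Synpr*, *Ncald*, *Adra2c*, *Stk32c*, *Btbd8*, *Pak6*, *Rasa4*, *Kcnk2*, *Fhl2*, and *Oacyl*. The 7 genes that fell in cerebellum and rose in cortex were *Chrnb2*, *Gli1*, *Shcbp1l*, *Frmpd3*, *Faap20*, *1500009L16Rik*, and *2700038G22Rik*. Their median change was 0.46 in cerebellum and 0.41 in cortex, as sizes on the log2 scale. The 17 genes were picked by p values from these same libraries. Where genotypes are said below not to overlap, this describes the values and adds no further support. Over 37 alternative fits, the fitted signs stayed opposite for all 17 genes, but the separate calls in both regions were kept less evenly, in 36 fits for *Synpr*, *Ncald*, and *Stk32c*, in 35 for *Adra2c* and *Btbd8*, in 26 for *Gli1*, in 25 for *Frmpd3*, in 23 for *Chrnb2*, in 21 for *Pak6*, in 20 for *Shcbp1l*, in 19 for *Rasa4*, in 18 for *Faap20*, and in 10 to 12 for the other 5. The alternative fits reused the libraries from which the 17 genes were picked, so the kept signs are no independent support. Of the 17 genes, 16 are protein coding. Several overlap another gene in the annotation (*Ncald*, *Stk32c*, *Btbd8*, *Chrnb2*, *Gli1*, *Rasa4*, and *Kcnk2*). Reads on sequence shared by such pairs fell on several genes and were left out. Strand could not assign them, since the first strand held 48.91% to 50.11% of the counts of both strands over all libraries.

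*Synpr* (synaptoporin, a membrane protein of synaptic vesicles, chromosome 14 of GRCm38 from 13284780 to 13616340) had the lowest p value of the 17. In cerebellum, the WT libraries held 71.1, 71.9, 75.3, and 78.4 CPM and the 154Q libraries 137, 131, 145, and 131 CPM. In cortex, WT libraries held 105, 110, 99.7, and 88.3 CPM and 154Q libraries 75.97, 58.3, 83.2, and 75.2 CPM. All 154Q libraries thus lay above all WT libraries in cerebellum and below them in cortex. The log2 change was 0.88 ± 0.085 (SE, n = 4 mice per genotype, edgeR adjusted p = 6.95e-06) in cerebellum and -0.46 ± 0.086 (adjusted p = 0.00208) in cortex, and the difference had an adjusted p of 2.96e-05. The WT mean was higher in cortex (101 ± 9.43 CPM, SD, n = 4) than in cerebellum (74.2 ± 3.36 CPM), and the 154Q mean was higher in cerebellum (136 ± 6.54 CPM) than in cortex (73.2 ± 10.5 CPM).

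*Btbd8* (chromosome 5 from 107437997 to 107511207) encodes a BTB domain protein that binds the clathrin adaptor complex of endocytosis. Its cerebellar levels were 54.8, 50.7, 57.4, and 54.9 CPM in WT and 65.8, 66.3, 70.1, and 67.0 CPM in 154Q libraries, and its cortical levels were 125, 125, 138, and 130 CPM in WT and 97.0, 106, 114, and 114 CPM in 154Q libraries. The genotypes did not overlap in either region, although both changes were small (0.31 ± 0.056, adjusted p = 0.00389, and -0.27 ± 0.056, adjusted p = 0.00507, edgeR).

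Among receptors, *Adra2c* encodes an alpha adrenergic receptor that couples to inhibitory G proteins and dampens noradrenaline release (chromosome 5 from 35278319 to 35281763). WT cerebella held 8.73, 7.21, 6.27, and 6.54 CPM and 154Q cerebella 10.5, 10.3, 9.63, and 10.8 CPM. WT cortices held 33.6, 25.3, 33.3, and 31.0 CPM and 154Q cortices 18.7, 21.2, 21.9, and 20.7 CPM. The groups were apart in both regions, with log2 changes of 0.52 ± 0.10 (adjusted p = 0.00599) and -0.58 ± 0.10 (adjusted p = 0.000999, edgeR).

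*Ncald* (neurocalcin delta, a neuronal calcium sensor, chromosome 15 from 37366175 to 37792570) was at 149, 150, 157, and 141 CPM in WT and 190, 188, 184, and 170 CPM in 154Q cerebella, and at 506, 574, 544, and 532 CPM in WT and 426, 395, 457, and 418 CPM in 154Q cortices. No 154Q library fell within the WT range in either region. The changes were 0.30 ± 0.055 (adjusted p = 0.00428) and -0.35 ± 0.055 (adjusted p = 0.000505, edgeR).

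*Rasa4* encodes a Ras GTPase-activating protein that responds to calcium (chromosome 5 from 136083916 to 136111860). It was more abundant in cerebellum, where WT libraries held 23.7, 22.4, 23.8, and 24.4 CPM and 154Q libraries 30.3, 27.9, 30.4, and 27.8 CPM. In cortex, WT libraries held 4.77, 5.06, 4.21, and 5.86 CPM and 154Q libraries 3.93, 3.59, 3.43, and 4.22 CPM. The cortical groups touched, since the highest 154Q library (4.22) exceeded the lowest WT library (4.21), and the changes were 0.31 ± 0.072 (adjusted p = 0.0228) and -0.39 ± 0.10 (adjusted p = 0.0205, edgeR).

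The kinases *Pak6* (a p21-activated kinase, chromosome 2 from 118663303 to 118698020) and *Stk32c* (a serine/threonine kinase, chromosome 7 from 139103638 to 139213307) were cortical genes with a low cerebellar level. *Pak6* was at 1.88, 1.73, 1.66, and 1.42 CPM in WT and 2.40, 3.98, 3.67, and 2.33 CPM in 154Q cerebella (0.90 ± 0.15, adjusted p = 0.00163, edgeR). Its cortical level was 123, 118, 118, and 119 CPM in WT and 90.3, 98.4, 85.0, and 92.8 CPM in 154Q mice (-0.38 ± 0.11, adjusted p = 0.0294). *Stk32c* rose from 4.52 ± 0.899 to 7.38 ± 1.22 CPM (SD, n = 4) in cerebellum and fell from 178 ± 10.3 to 125 ± 10.4 CPM in cortex, with no overlap in either region. For both genes the cerebellar level lay far below the cortical one. The sum of 7 cortical neuron markers in cerebellum was 66.3 to 76.2 CPM in WT and 71.1 to 77.8 CPM in 154Q mice. The sum of 5 striatal markers was 7.22 to 7.93 CPM in WT and 8.94 to 12.2 CPM in 154Q cerebella, without overlap, and its part in these rises was not tested.

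The remaining 3 genes of this direction lay outside the rule for named genes, being behind the first 12 or under 1 CPM in a region, and are given to complete the list. *Kcnk2*, a leak potassium channel, went from 15.6 ± 1.08 to 21.6 ± 2.68 CPM in cerebellum and from 60.9 ± 1.33 to 48.5 ± 7.97 CPM in cortex. *Fhl2*, a LIM domain cofactor of transcription, went from 1.47 ± 0.0846 to 2.03 ± 0.242 CPM and from 46.3 ± 3.62 to 39.1 ± 2.53 CPM. *Oacyl*, named for an O-acyltransferase-like sequence, was near the limit of these libraries, at 0.150 ± 0.0344 and 0.322 ± 0.0589 CPM in cerebellum and 1.14 ± 0.196 and 0.693 ± 0.13 CPM in cortex.

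In the reverse direction, *Chrnb2* encodes a beta subunit of neuronal nicotinic acetylcholine receptors (chromosome 3 from 89746195 to 89764632). Its WT cerebella held 114, 107, 115, and 112 CPM and its 154Q cerebella 98.0, 101, 97.9, and 99.1 CPM. Its WT cortices held 60.02, 61.2, 60.2, and 63.8 CPM and its 154Q cortices 74.4, 69.7, 72.2, and 72.4 CPM. Replicates were tight, so that small changes of -0.18 ± 0.040 (adjusted p = 0.0182) and 0.23 ± 0.041 (adjusted p = 0.00127, edgeR) separated the groups fully. *Chrnb2* overlaps *Adar* in the annotation. Its difference was not called with the counts of the first strand (adjusted p = 0.0933, edgeR). The libraries were not stranded, so those counts cannot tell *Chrnb2* reads from *Adar* reads.

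*Gli1*, a transcription factor and target gene of Hedgehog signaling, is expressed in the adult cerebellum by Bergmann glia, which receive Sonic hedgehog from Purkinje cells (chromosome 10 from 127329882 to 127341974). It was at 14.6, 15.7, 13.02, and 15.7 CPM in WT and 11.5, 12.5, 12.5, and 10.8 CPM in 154Q cerebella. In cortex it was at 2.43, 2.52, 2.42, and 2.77 CPM in WT and 3.67, 3.92, 3.70, and 4.10 CPM in 154Q mice. The fall in cerebellum (-0.32 ± 0.073, adjusted p = 0.0197) was smaller than the rise in cortex (0.60 ± 0.11, adjusted p = 0.00164, edgeR), and the groups did not overlap in either. Of 20 genes of Bergmann glia and astrocytes tested, 2 were lowered in cerebellum (2.06% of all genes were) and 10 in cortex (5.45% of all genes), none was raised in either, and the change differed between regions for 0 (2.84% of all genes); *Gli1* was not on that list.

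*Shcbp1l*, studied for its role in meiosis of the testis, had the largest fall of the 7 genes in cerebellum (chromosome 1 from 153425162 to 153452574). WT cerebella held 4.73, 3.99, 4.55, and 4.62 CPM and 154Q cerebella 2.02, 2.66, 1.88, and 1.96 CPM (-1.06 ± 0.15, adjusted p = 0.000259, edgeR). WT cortices held 1.62, 1.17, 1.45, and 1.05 CPM and 154Q cortices 2.91, 2.60, 1.56, and 1.88 CPM (0.76 ± 0.22, adjusted p = 0.036), with overlap between the genotypes.

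*Frmpd3*, which encodes a FERM and PDZ domain protein and lies on chromosome X from 140342263 to 140435467, was at 32.4, 29.98, 35.8, and 36.6 CPM in WT and 18.4, 23.1, 27.5, and 19.5 CPM in 154Q cerebella. In cortex it was at 58.5, 53.1, 52.9, and 62.3 CPM in WT and 78.8, 83.0, 64.5, and 74.2 CPM in 154Q mice. The genotypes were apart in both regions (-0.61 ± 0.11, adjusted p = 0.00323, and 0.41 ± 0.11, adjusted p = 0.0245, edgeR). Library 154Q-75, the 1 female-type library by *Xist* in each region of 154Q mice, was the nearest to WT in both.

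*Faap20* encodes a ubiquitin-binding subunit of the Fanconi anemia core complex of DNA repair (chromosome 4 from 155249802 to 155256687). It fell from 36.0 ± 1.80 to 29.1 ± 1.35 CPM (SD, n = 4) in cerebellum and rose from 14.8 ± 1.06 to 17.3 ± 0.352 CPM in cortex, with no overlap in either. The RNAs *1500009L16Rik* (-0.46 in cerebellum and 0.47 in cortex) and *2700038G22Rik* (-0.52 and 0.89) complete the group and fall outside the rule for named genes.

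**Figure D2:**
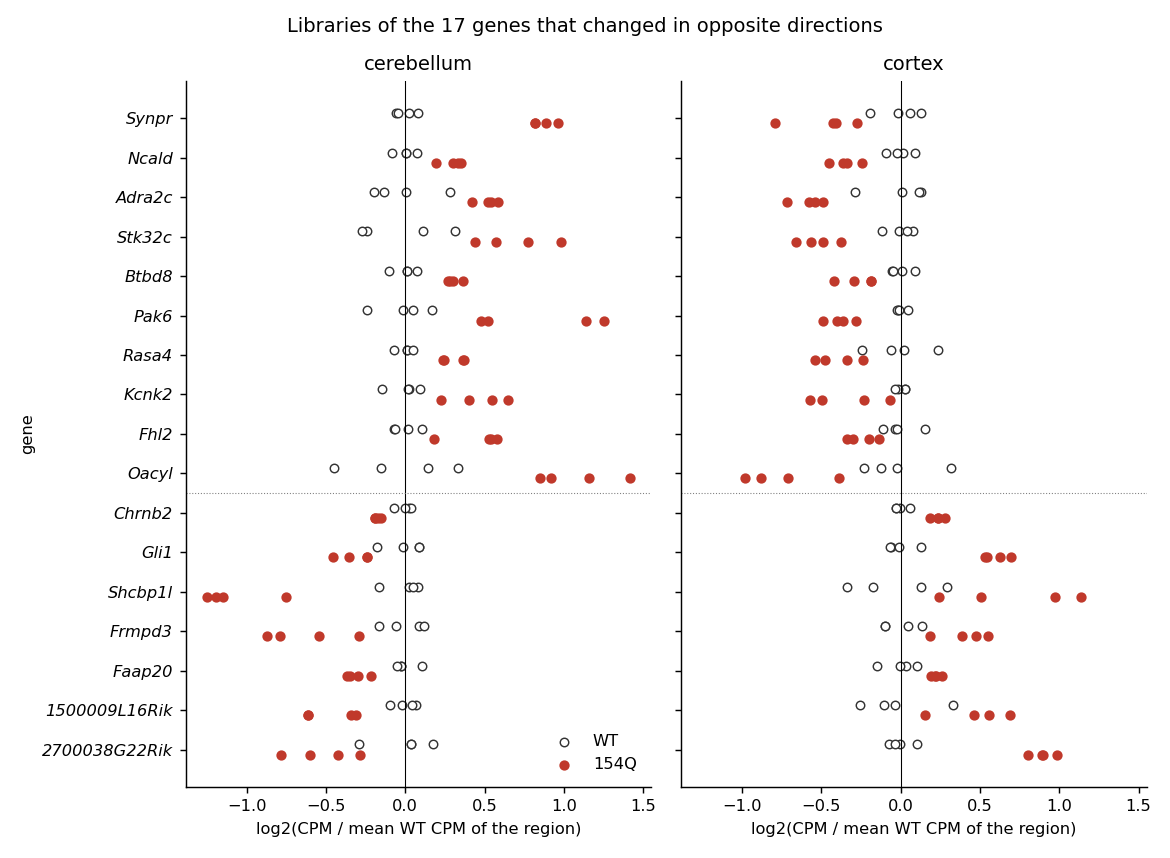
For each of the 17 genes (rows), every cerebellar library (left) and cortical library (right) is shown as log2 of its CPM over the mean of the 4 WT libraries of that region, with WT open and 154Q filled. The 154Q libraries lie right of WT in cerebellum and left of WT in cortex for the upper 10 genes, and the other way around for the lower 7, with the groups touching for *Rasa4*, *Shcbp1l*, and *1500009L16Rik* in cortex and *2700038G22Rik* in cerebellum. The 17 genes were picked by p values from these same libraries.

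Promoter windows of 250 bases before to 50 bases after the start of RefSeq transcripts (GRCm38.p6) were at hand for 14 of the 17 genes. The CIC octamer, TGAATGAA or TGAATGGA on either strand, was in the window of 1 of the 14 (7.14%), against 2.85% of all 27025 genes with a window, 2.1% of those tested, and 0.913% of the genes whose change differed. That gene was *Rasa4*, where the octamer (in capitals) lies 38 bases past the start on the plus strand, at chr5:136083942-136083965.

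Rasa4: gcggggaggggTGAATGGAgtagc

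The cAMP response element TGACGTCA was in none of the 14 and in 2.03% of all genes. Among the other genes named below, *Wiz* held the CIC octamer at 2 places upstream of its start, at offsets of -245 and -155 bases from it on the minus strand of chromosome 17, and these are shown because both carry the same octamer. A match describes letters in the window and no more.

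Wiz, chr17:32388044-32388067: tgtggTGAATGGAggctgtgaaga

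Wiz, chr17:32387954-32387983: tataataggagTGAATGGAacctcaacacc

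The other regions of the same mice supplied libraries that the rule had not used. In striatum (4 WT and 4 154Q libraries), all 10 genes that rose in cerebellum had fitted changes below 0 (from -1.37 to -0.017), as in cortex, and 6 of the 7 genes that fell in cerebellum had changes above 0. At an adjusted p under 0.05, *Adra2c* and *Stk32c* were lowered in striatum, where 3.57% of the genes tested were lowered, and *Chrnb2* was raised, where 1.76% were raised. *Adra2c* was at 53.4, 40.1, 91.0, and 47.5 CPM in WT and 23.9, 19.2, 24.04, and 22.9 CPM in 154Q striata (-1.37 ± 0.23, adjusted p = 0.0101, edgeR). *Stk32c* was at 261, 206.9, 278, and 217.9 CPM in WT and 154, 139, 158, and 161 CPM in 154Q striata (-0.66 ± 0.10, adjusted p = 0.00778). The WT libraries lay above the 154Q libraries for both genes. Library WT-220 stood apart from the other WT striata for several of these genes. It was higher for *Adra2c* (91.0 CPM) and *Kcnk2* (146 CPM against 85.8 to 102). It was lower for *Frmpd3* (19.9 CPM against 37.8 to 47.3) and *Ncald* (211 CPM against 402 to 462). *Fhl2* (20.8 CPM against 41.0 to 46.7) and *Btbd8* (72.1 CPM against 110 to 129) were lower as well. The part of dissection in this was not tested. Leaving out WT-220 gave 2235 called genes against 973 with all libraries, and leaving out any other single striatal library gave 369 to 679. Without WT-220, 7 of the 10 genes were lowered (8.13% of all genes tested) and 2 of the 7 were raised (4.01%). In that fit, 0 were called against the cortical direction.

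In hippocampus (4 WT and 3 154Q libraries, leaving out library 154Q-76, which mixed signals of *Xist* and Y-linked genes), *Stk32c* was lowered (-0.37 ± 0.093, adjusted p = 0.0453, edgeR) and *Frmpd3* raised (0.47 ± 0.11, adjusted p = 0.0304), where 3.56% of all genes were lowered and 2.16% raised. The call of *Stk32c* was lost without mouse WT-220 or any single 154Q mouse, and that of *Frmpd3* without mouse WT-70 or any single 154Q mouse. *Synpr* was at 159 to 173 CPM in WT and 152 to 181 CPM in 154Q hippocampi (change of 0.010 ± 0.070). In brainstem, where 0.062% of genes were raised and 0.219% lowered, none of the 17 was called, and their changes ran from -0.34 to 0.24. Striatum, hippocampus, and brainstem were also fitted with single libraries left out, or with hippocampal 154Q-76 put back. Over all pairs of gene and such fit, a call was lost in 12, gained in 8, and reversed in 0.

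**Figure D3:**
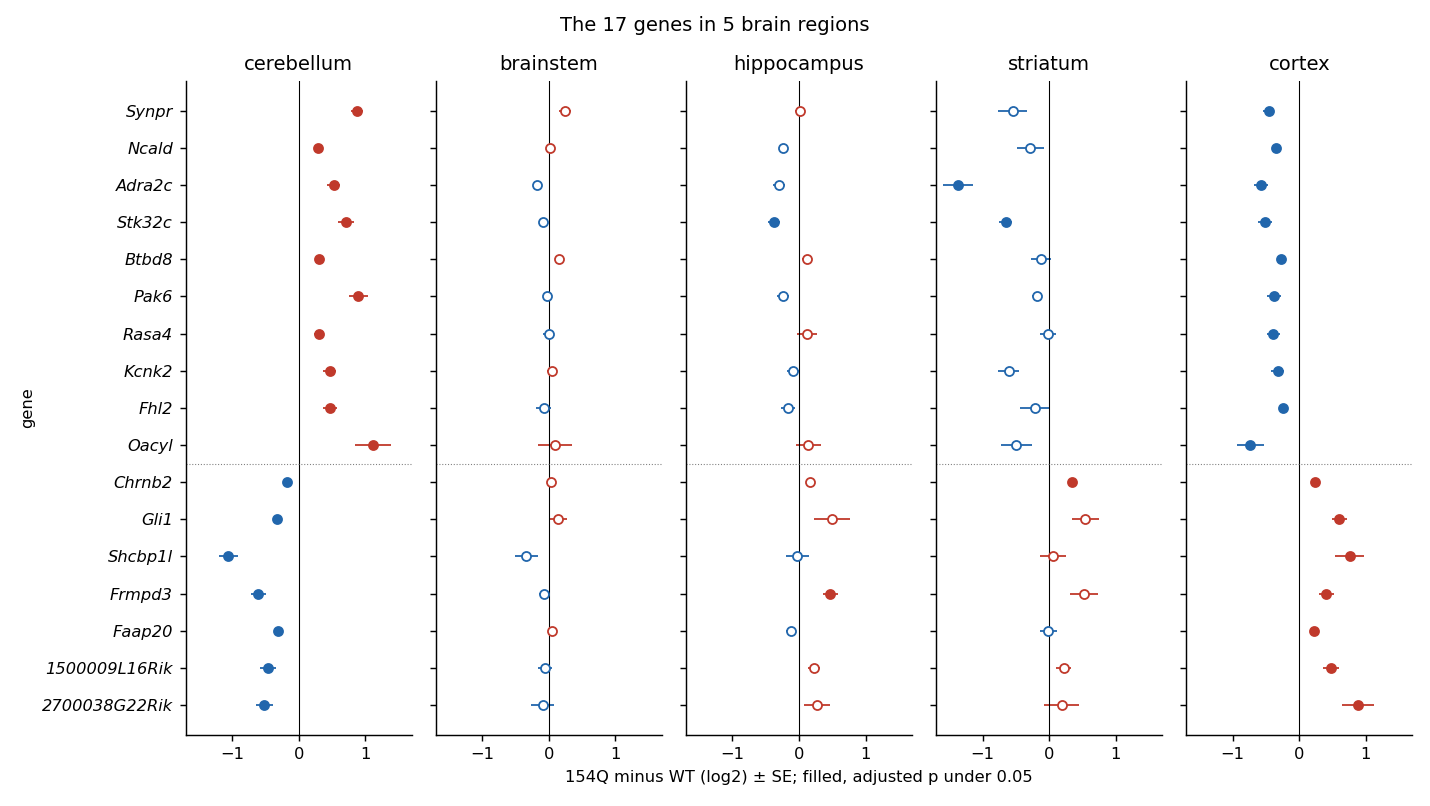
Points show the 154Q minus WT log2 change with its SE for the 17 genes in 5 regions, red above 0 and blue below 0, filled at an adjusted p under 0.05. In striatum, 10 of the upper 10 genes lie below 0 and 6 of the lower 7 above 0, and brainstem values lie between -0.34 and 0.24. The share of all genes with such signs was not counted.

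The study also has 4 mice with the expanded allele carrying the V591A and S602D substitutions, which disrupt binding of ATXN1 to CIC (154Q-AXH). They were compared with the same WT mice, so the values are given side by side and no agreement is drawn from them. All 154Q-AXH mice carry high mouse numbers and all 154Q mice low ones, so mutant type and number series cannot be told apart. In cerebellum, the 154Q-AXH minus WT change was 0.79 for *Synpr* (adjusted p = 2.87e-06, edgeR model of 6 groups), 0.42 for *Adra2c* (adjusted p = 0.0171), and 0.27 for *Stk32c* (adjusted p = 0.301). *Pak6* stood at 0.21 (adjusted p = 0.662) and *Shcbp1l* at -0.80 (adjusted p = 0.000984). In cortex, the change was -0.34 for *Synpr* (adjusted p = 0.012), -0.47 for *Adra2c* (adjusted p = 0.00141), -0.46 for *Stk32c* (adjusted p = 0.00363), and -0.40 for *Pak6* (adjusted p = 0.0343). *Gli1* was at -0.17 in cerebellum (adjusted p = 0.306) and 0.38 in cortex (adjusted p = 0.0699). Of the 17 genes, 6 were called in 154Q-AXH cerebellum, where 1.9% of all genes were called, and 11 in 154Q-AXH cortex, where 7.66% were. The 17 genes were picked by changes from these same WT libraries, so their counts cannot be weighed against those shares.

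**Figure D4:**
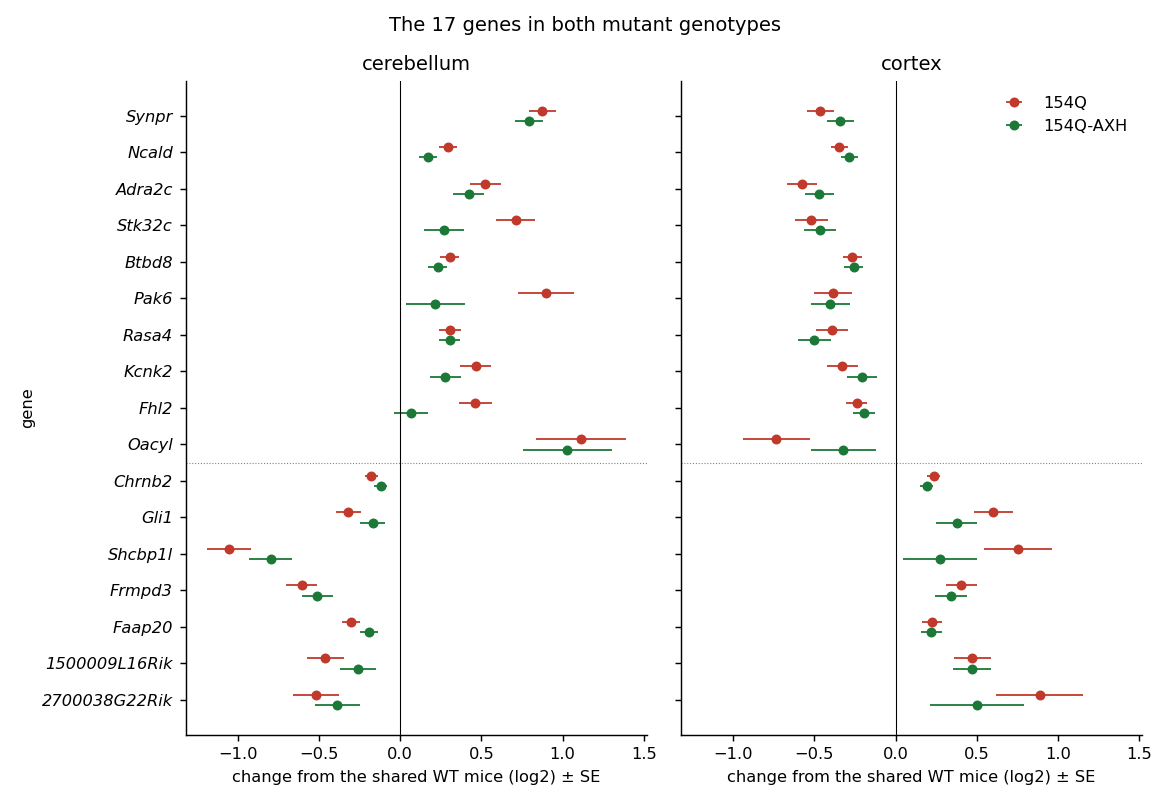
For the 17 genes, the log2 change from the shared WT mice is shown with its SE for 154Q mice (red) and 154Q-AXH mice (green) in cerebellum (left) and cortex (right). *Pak6* and *Stk32c* show cerebellar values of 0.21 and 0.27 in 154Q-AXH beside 0.90 and 0.71 in 154Q mice, and cortical values of -0.40 and -0.46 beside -0.38 and -0.52. Differences between the mutants were not tested, and the mutants come from different series of mouse numbers.

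Of the 116 differing genes called in the cerebellum alone, 52 were raised and 64 lowered there. For 98 of the 116 the fitted cortical change had the opposite sign, without passing. The 4 raised genes with the lowest p values have a higher WT level in cortex. *Fam163b*, which encodes a small membrane protein, was at 3.61 to 4.97 CPM in WT and 10.3 to 17.1 CPM in 154Q cerebella (1.58 ± 0.14, edgeR adjusted p = 1.74e-06), and at 122 to 145 and 104 to 124 CPM in cortex (-0.19 ± 0.12, adjusted p = 0.394). *Kcnb2*, a delayed rectifier potassium channel, was at 6.78 to 9.42 and 16.3 to 25.3 CPM in cerebellum (1.30 ± 0.12, adjusted p = 2.86e-06) and 29.9 to 33.4 and 25.4 to 32.8 CPM in cortex. *Nrg3*, a neuregulin that signals through the receptor ErbB4, had cerebellar levels of 9.09 to 10.2 and 13.6 to 16.9 CPM (0.64 ± 0.078, adjusted p = 8.51e-05). *Syt16*, an atypical synaptotagmin, had cerebellar levels of 3.22 to 3.99 and 5.12 to 7.45 CPM (0.80 ± 0.10, adjusted p = 8.26e-05). None of the cerebellar ranges overlapped between genotypes, in genes picked by low p values from the same libraries.

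Among the genes lowered in cerebellum alone, *Plcb3*, a phospholipase C that acts behind metabotropic glutamate receptors in a subset of Purkinje cells, fell from 63.9 to 74.1 CPM in WT to 37.3 to 40.6 CPM in 154Q cerebella (-0.83 ± 0.060, edgeR adjusted p = 3.06e-07), with 21.4 to 23.0 and 18.2 to 22.3 CPM in cortex. *Rasal1*, a Ras GTPase-activating protein, fell from 12.2 to 15.4 CPM to 5.10 to 7.11 CPM in cerebellum (-1.22 ± 0.11, adjusted p = 1.48e-06), while its cortical means were 113 CPM in both genotypes. *Rasa4* and *Rasal1*, both Ras GTPase-activating proteins, thus moved apart in cerebellum. *Stap2*, a signaling adaptor, fell from 24.4 ± 1.60 to 10.8 ± 0.175 CPM in cerebellum (-1.17 ± 0.092, adjusted p = 5.8e-07). *Ipo5*, a nuclear import receptor, fell from 162 ± 6.12 to 129 ± 2.45 CPM (-0.33 ± 0.044, adjusted p = 0.000182) and was at 186 ± 2.19 and 197 ± 10.8 CPM in cortex. *Fam107b*, on the list of Purkinje cell genes, was at 184 to 224 CPM in WT and 119 to 128 CPM in 154Q cerebella. The sum of 9 cerebellar markers was also lower in 154Q cerebella (7732 to 7951 CPM) than in WT cerebella (8870 to 9806 CPM), and its part in these falls was not tested.

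Genes called in the cortex alone formed the largest class, with 93 raised and 301 lowered. For 280 of these 394 genes the fitted cerebellar change had the opposite sign, without passing. *Lingo1*, a membrane protein that restrains axon growth and myelination, was at 491 to 533 CPM in WT and 286 to 329 CPM in 154Q cortices (-0.70 ± 0.062, edgeR adjusted p = 1.86e-06), and at 27.7 to 34.2 and 32.5 to 35.9 CPM in cerebellum (0.21 ± 0.064, adjusted p = 0.0894). In the model of 6 groups with 154Q-AXH mice, the cerebellar rise of *Lingo1* in 154Q mice passed (0.21 ± 0.056, edgeR adjusted p = 0.027). *Lzts3*, a postsynaptic protein that binds Shank scaffolds, was at 301 to 347 and 194 to 210 CPM in cortex (-0.68 ± 0.049, adjusted p = 3.37e-07), with means of 112 and 113 CPM in cerebellum. *Efhd2*, a calcium-binding protein, was at 407 to 436 and 233 to 286 CPM in cortex (-0.75 ± 0.060, adjusted p = 6.54e-07). *Pdp1*, the phosphatase that activates pyruvate dehydrogenase, was at 168 to 212 and 88.8 to 111 CPM in cortex (-0.99 ± 0.079, adjusted p = 6.54e-07) and at 64.5 to 73.8 and 65.7 to 75.2 CPM in cerebellum. For these 4 genes, which were picked by low p values from the same libraries, no cortical library of 1 genotype lay within the range of the other. The sum of 7 cortical markers was 691 to 798 CPM in WT and 527 to 609 CPM in 154Q cortices, again without overlap. The part of a changed cell makeup in these falls was not tested.

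Of the genes raised in cortex alone, *Onecut2*, a homeobox transcription factor, rose from 1.32 to 2.28 CPM in WT to 5.98 to 12.3 CPM in 154Q cortices (2.44 ± 0.26, edgeR adjusted p = 1.05e-05), and was at 2.73 to 4.80 and 3.55 to 5.61 CPM in cerebellum. *Wiz*, a zinc finger protein of the G9a histone methyltransferase complex, rose from 43.0 to 44.6 CPM to 52.3 to 61.2 CPM (0.39 ± 0.058, adjusted p = 0.000244). *Abca7*, a lipid transporter, rose in cortex from 23.1 to 26.4 CPM to 33.3 to 38.5 CPM (0.50 ± 0.081, adjusted p = 0.000707), and its cerebellar change of -0.28 ± 0.077 missed the threshold (adjusted p = 0.056). *Slc1a6*, the glutamate transporter of Purkinje cells, rose in cortex from 9.17 ± 1.15 to 12.8 ± 0.668 CPM (0.48 ± 0.079, adjusted p = 0.000806), and its cerebellar values of 139 ± 4.68 and 120 ± 8.28 CPM missed the threshold (adjusted p = 0.0992). In the model of 6 groups, the cerebellar fall of *Slc1a6* in 154Q mice passed (-0.21 ± 0.062, edgeR adjusted p = 0.0457).

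Some genes fell in both regions, but to different degrees. *Plk5*, a polo-like kinase family member, was lowered further in cortex (-2.69 ± 0.16, edgeR adjusted p = 7.5e-08) than in cerebellum (-0.99 ± 0.12, adjusted p = 9.6e-05), with cortical values of 24.4, 16.5, 12.9, and 16.5 CPM in WT and 2.97, 2.72, 2.93, and 2.24 CPM in 154Q mice. *Tspan11*, a tetraspanin, was likewise lowered further in cortex (-1.86 ± 0.16 against -0.53 ± 0.12), as was *Ankrd33b*, an ankyrin repeat protein (-0.79 ± 0.064 against -0.32 ± 0.066). *Kcnh3*, a potassium channel of the ether-a-go-go family that is mainly a forebrain gene, was lowered further in cerebellum (-1.90 ± 0.21, adjusted p = 3.82e-05) than in cortex (-0.48 ± 0.12, adjusted p = 0.0157), from 1.92 ± 0.505 to 0.513 ± 0.137 CPM in cerebellum and from 214 ± 30.5 to 154 ± 13.7 CPM in cortex. *Igfbp5*, which binds insulin-like growth factors, fell further in cerebellum as well (-1.22 ± 0.095 against -0.57 ± 0.095), from 198 to 269 CPM to 92.8 to 113 CPM there.

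Gene lists were described by how many members passed each test, and each count reads against the share over all genes tested, which was 1.11% raised and 2.06% lowered in cerebellum, 3.16% raised and 5.45% lowered in cortex, and 2.84% differing. Of 26 immediate early genes, which neurons switch on with activity, 0 were called in cerebellum and 13 were lowered in cortex, with median changes of -0.011 and -0.54, and the change differed between regions for 5. Among these, *Ier5* fell from 173 ± 18.6 to 113 ± 10.5 CPM in cortex and was at 19.2 ± 1.53 and 21.7 ± 1.23 CPM in cerebellum. *Dusp6*, a phosphatase of the MAP kinase ERK, fell from 99.6 ± 9.32 to 68.1 ± 2.34 CPM in cortex, and *Homer1*, a postsynaptic scaffold, from 248.7 ± 31.8 to 142 ± 6.24 CPM. Neither was called in cerebellum (0.13 ± 0.078 and -0.057 ± 0.10). Of 21 CIC target and MAPK feedback genes, *Dusp6* among them, 1 was lowered in cerebellum and 9 in cortex, and 3 differed (all genes 2.06%, 5.45%, and 2.84%).

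Of 25 genes of cortical interneurons and neuropeptides, 2 were raised and 1 lowered in cerebellum and 13 were lowered in cortex, and 5 differed, against 2.84% of all genes. *Gad1*, which makes GABA, fell from 391 ± 18.1 to 271 ± 15.2 CPM in cortex (-0.53 ± 0.054, edgeR adjusted p = 7.12e-06) and was at 676 ± 38.9 and 645 ± 23.7 CPM in cerebellum. *Penk*, the precursor of enkephalins, fell from 35.3 ± 8.55 to 18.1 ± 2.46 CPM in cortex and was at 55.5 ± 2.79 and 56.8 ± 2.06 CPM in cerebellum. *Gabrd*, the GABA receptor subunit of tonic inhibition in granule cells and forebrain, fell from 78.7 ± 8.05 to 35.5 ± 4.88 CPM in cortex (-1.15 ± 0.084, adjusted p = 3.37e-07) and was at 188 ± 9.37 and 173 ± 6.73 CPM in cerebellum (-0.11 ± 0.080, adjusted p = 0.553).

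Of 34 glutamate receptor genes, 2 were raised and 3 lowered in cerebellum, 1 was raised and 10 were lowered in cortex, and 7 differed, against 5.45% of all genes lowered in cortex and 2.84% differing. *Gsg1l*, an auxiliary subunit of AMPA receptors, fell from 108 ± 9.32 to 49.8 ± 4.74 CPM in cortex, and *Grm2*, a presynaptic metabotropic receptor, from 77.5 ± 5.89 to 44.1 ± 3.93 CPM. Of 65 G protein, cAMP, and calcium signaling genes, 4 were raised and 5 lowered in cerebellum, 1 was raised and 26 were lowered in cortex, and 14 differed, with *Ncald* in opposite directions. *Rgs20*, which shortens G protein signals, fell in cortex from 33.4 ± 2.46 to 23.6 ± 2.27 CPM.

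Of 68 potassium channel genes, 2 were raised and 10 lowered in cerebellum, 1 was raised and 21 were lowered in cortex, and 7 differed (all genes 2.06% lowered in cerebellum, 5.45% lowered in cortex, and 2.84% differing), among them *Kcnb2*, *Kcnh3*, *Kcnk2*, and the channel partner *Kcnip3* (158 ± 11.5 to 103 ± 10.1 CPM in cortex). Of 32 voltage-gated calcium and sodium channel genes, 2 were raised in cerebellum, 2 were raised and 5 lowered in cortex, and 3 differed. *Scn4b*, a sodium channel beta subunit, fell from 83.1 ± 20.5 to 28.2 ± 6.58 CPM in cortex, and *Cacna1i*, a T-type calcium channel, from 139 ± 14.2 to 106 ± 9.71 CPM. Axon guidance and synaptic adhesion genes (93 tested) had 7 raised and 1 lowered in cerebellum and 10 raised and 12 lowered in cortex, and 9 differed (all genes 1.11% and 2.06%, 3.16% and 5.45%, and 2.84%), with *Lingo1* first and *Epha10*, an ephrin receptor, at 59.1 ± 2.69 and 38.7 ± 5.64 CPM in cortex.

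Of 30 Purkinje cell genes, 12 were lowered and 0 raised in cerebellum, 7 were lowered and 1 was raised in cortex, and 4 differed, with median changes of -0.32 and -0.33, where 2.06% of all genes were lowered in cerebellum, 5.45% in cortex, and 2.84% differed. Of 20 granule cell genes, 1 was raised in cerebellum and 5 were lowered in cortex, and 2 differed. Of 26 cortical projection neuron genes, 1 was raised and 1 lowered in cerebellum and 10 were lowered in cortex, and 4 differed. *Lamp5* fell from 282 ± 33.2 to 120 ± 28.9 CPM in cortex, and in cerebellum was at 1.21 to 1.71 CPM in WT and 1.22 to 3.08 CPM in 154Q mice. *Bcl11b*, a transcription factor of deep-layer and striatal neurons, was raised in cerebellum from 1.42 ± 0.238 to 2.94 ± 1.21 CPM (edgeR adjusted p = 0.00753). Its 154Q cerebella held 1.81, 3.52, 4.37, and 2.07 CPM. The sum of striatal markers given above was also higher in 154Q cerebella, and its part in this rise was not tested. In cortex, *Bcl11b* was at 47.2 ± 1.65 and 38.5 ± 1.96 CPM (edgeR adjusted p = 0.27).

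**Figure D5:**
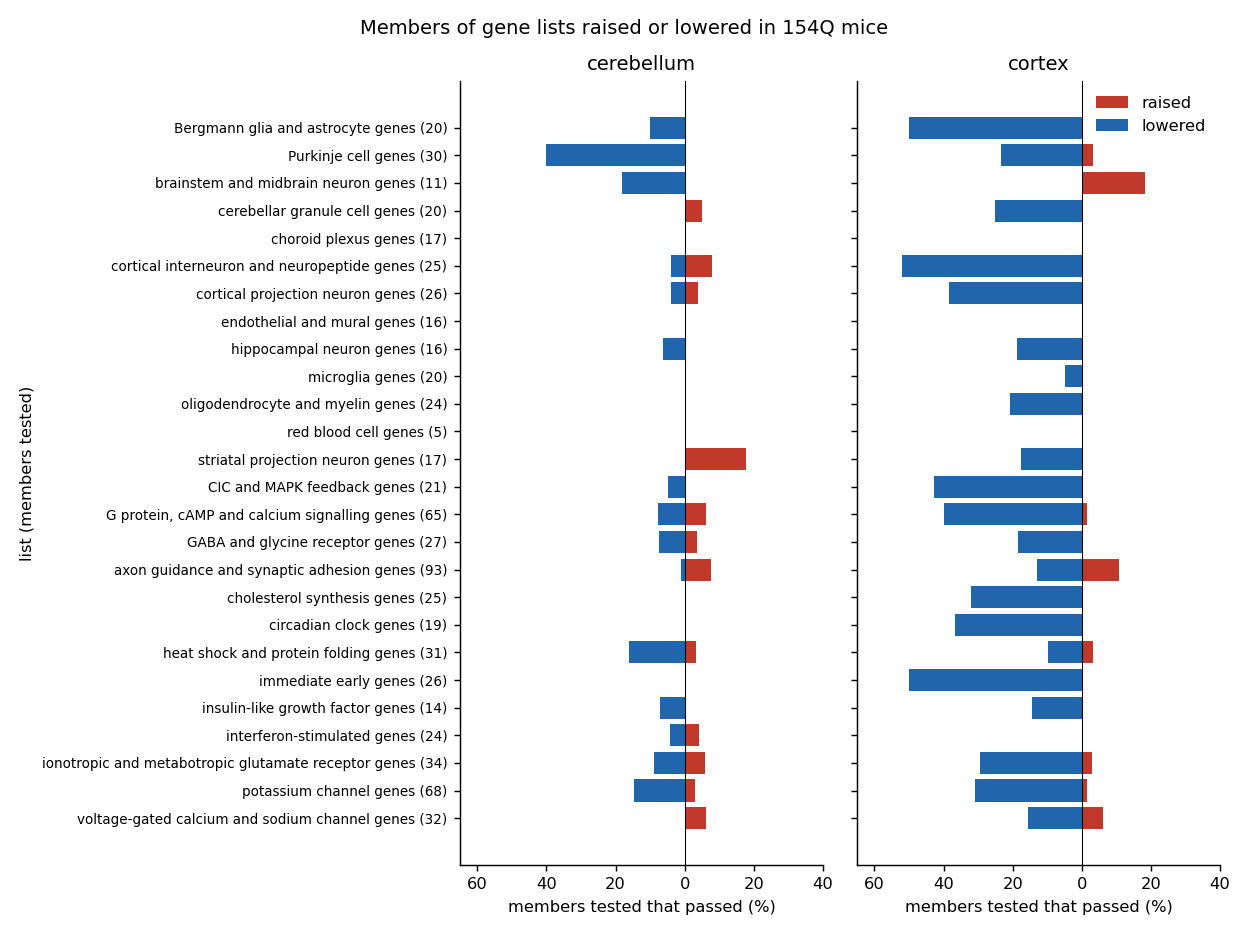
Bars give the share of tested members of each list raised (red, to the right) or lowered (blue, to the left) in 154Q cerebellum and cortex at an adjusted p under 0.05, with the number of members tested in brackets. Immediate early genes, cholesterol synthesis genes, and circadian clock genes have members lowered in cortex (13 of 26, 8 of 25, and 7 of 19) and none called in cerebellum, against 5.45% of all genes lowered in cortex and 3.17% called in cerebellum.

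Of 25 cholesterol synthesis genes, 0 were called in cerebellum and 8 were lowered in cortex, and 4 differed (all genes 3.17% called in cerebellum, 5.45% lowered in cortex, and 2.84% differing), with *Mvd*, of the mevalonate pathway, at 26.8 ± 0.797 and 21.6 ± 1.20 CPM in cortex. Of 19 circadian clock genes, 0 were called in cerebellum and 7 were lowered in cortex, and 2 differed, namely the transcriptional repressors *Bhlhe40* (161 ± 27.4 to 99.0 ± 6.94 CPM) and *Ciart* (19.5 ± 1.04 to 11.3 ± 2.74 CPM). Of 14 insulin-like growth factor genes, 1 was lowered in cerebellum and 2 in cortex, and both differed, *Igfbp4* falling in cortex from 105 ± 12.2 to 59.6 ± 8.26 CPM. Heat shock genes (31 tested) had 5 lowered and 1 raised in cerebellum and 3 lowered and 1 raised in cortex, the cortical counts being near the shares over all genes, and among them 1 differed, *Dnajb5*, an HSP40 chaperone (224 ± 16.4 to 166 ± 19.1 CPM in cortex). No difference was called for any of the 24 oligodendrocyte, 17 choroid plexus, 16 endothelial and mural, or 5 red blood cell genes tested, of which 5 oligodendrocyte genes were lowered in cortex. Of 27 GABA and glycine receptor genes 1 differed (*Gabrd*), of 24 interferon-stimulated genes 1, of 20 microglia genes 1, of 17 striatal neuron genes 4, of 16 hippocampal neuron genes 2, and of 11 brainstem and midbrain neuron genes 2.

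The counts depended on which mice entered. The 154Q mice all carry low mouse numbers, and WT mice WT-70 and WT-77 share that series while WT-220 and WT-221 do not. With the series as a covariate in each region, 197 genes differed and 3 changed in opposite directions. Of the 17 genes, 2 kept the opposite calls in that fit (*Synpr* and *Ncald*), and 14 were still called in the test of the difference, *Oacyl*, *1500009L16Rik*, and *2700038G22Rik* being lost. Of the list members given above, *Penk*, *Bhlhe40*, *Bcl11b*, *Lamp5*, and *Mvd* also lost the call of a difference in that fit. Without the cortical libraries WT-221 and 154Q-76, whose labels are in doubt, 448 genes differed and 11 changed in opposite directions, 10 of the 17 among them. In 1 model of all 40 WT and 154Q libraries of the 5 regions, the difference was not called for *Ncald* (edgeR adjusted p = 0.0564), *Gli1* (0.0708), *Fam107b* (0.0792), *Gabrd* (0.109), *Tspan11* (0.117), *Epha10* (0.12), *Fhl2* (0.219), *Grm2* (0.221), *Lamp5* (0.287), *Ankrd33b* (0.398), *Scn4b* (0.589), or *Penk* (0.649). Under the fits with the covariate, without the libraries in doubt, and with 40 libraries, the fitted changes of all 17 genes kept opposite signs. These fits reuse libraries that picked the 17 genes.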

How the data were processed

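PolyA RNA was sequenced as read pairs. According to the submitters' processing notes, reads were trimmed with Trimmomatic 0.36 and aligned to GRCm38.p6 with STAR 2.7.2d, and the authors deposited STAR's raw counts per gene (54232 genes). Counts without regard to strand were used, and the summary lines (unmapped, multimapping, without a gene, or on several genes) were left out, so that 75.33% to 81.1% of read pairs entered. Groups were taken from the sample labels. The members and gene lists were chosen with earlier results of these data known.

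Genes were filtered with filterByExpr, scaled by TMM, and tested with edgeR 4.0.16 (R 4.3.3) quasi-likelihood F tests in a model of the 4 groups, with Benjamini-Hochberg adjustment over all genes tested and a threshold of 0.05. Fold changes came from the edgeR fit at its default prior count, and a standard error is the change divided by the root of its F. A prior count of 2 entered log2 CPM, which served the same-mouse correlations and covariates from *Xist* or *Ttr* levels. Each other region and the 154Q-AXH mice were fitted in the same way. The code was tested on simulated counts with known changes. Named genes were protein coding, with a symbol and a mean of at least 1 CPM in each region, and ranked by the p of the difference: 12 with opposite changes, 4 each raised and lowered in 1 region alone, 4 lowered in both, and list members that differed. Positions are from GENCODE M21. Cerebellum and cortex libraries share mice by label, which the *Xist* level contradicts for WT-221. The same-mouse correlations of deviations from group means are given with the alternatives, among them DESeq2 1.42.0.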

Additional observations from a re-analysis of the deposited data

Results flagged for a closer look

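The 154Q minus WT change differed between cerebellum and cortex by the edgeR test of the difference for the 59 genes named in the text. Values are log2 changes in cerebellum minus those in cortex. Among genes with opposite changes, the difference was 1.34 for *Synpr*, 0.64 for *Ncald*, 1.10 for *Adra2c*, 1.23 for *Stk32c*, 0.57 for *Btbd8*, 1.28 for *Pak6*, 0.70 for *Rasa4*, 0.79 for *Kcnk2*, 0.70 for *Fhl2*, and 1.85 for *Oacyl*. Where the cerebellar change was the lower one, it was -0.41 for *Chrnb2*, -0.92 for *Gli1*, -1.81 for *Shcbp1l*, -1.01 for *Frmpd3*, -0.53 for *Faap20*, -0.94 for *1500009L16Rik*, and -1.40 for *2700038G22Rik*. For genes raised in cerebellum alone it was 1.77 for *Fam163b*, 1.43 for *Kcnb2*, 0.82 for *Nrg3*, and 0.82 for *Syt16*. For genes lowered in cerebellum alone it was -1.23 for *Rasal1*, -0.71 for *Plcb3*, -1.35 for *Stap2*, and -0.42 for *Ipo5*. For genes raised in cortex alone it was -0.56 for *Wiz*, -0.77 for *Abca7*, -2.30 for *Onecut2*, and -0.69 for *Slc1a6*. For genes lowered in cortex alone it was 0.91 for *Lingo1*, 0.68 for *Lzts3*, 0.80 for *Efhd2*, and 1.02 for *Pdp1*. For genes lowered in both regions it was 1.697 for *Plk5*, 1.34 for *Tspan11*, -1.42 for *Kcnh3*, and 0.47 for *Ankrd33b*. Among list members it was 1.03 for *Gabrd*, 0.86 for *Gsg1l*, 0.79 for *Ier5*, 0.84 for *Grm2*, 0.65 for *Rgs20*, and 0.68 for *Dusp6*. Further list members had differences of -0.53 for *Fam107b*, 0.46 for *Gad1*, 1.41 for *Igfbp4*, 0.56 for *Kcnip3*, 0.69 for *Epha10*, and 1.19 for *Scn4b*. Next came 0.54 for *Dnajb5*, 0.75 for *Homer1*, 1.00 for *Penk*, 0.68 for *Bhlhe40*, 1.35 for *Bcl11b*, and 1.59 for *Lamp5*. The last were 0.97 for *Ciart*, 0.56 for *Mvd*, 0.61 for *Cacna1i*, and -0.65 for *Igfbp5*.

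A single library lay far from the others of its group in 14 of 321 combinations of gene and group, by Dixon's critical value, which chance passes in about 1 in 20 groups. *Pak6* was highest in WT-70 among the cortex libraries of WT mice, at 123 CPM against 118 to 119 CPM. *Faap20* was highest in WT-70 among the cerebellum libraries of WT mice, at 38.7 CPM against 34.7 to 35.3 CPM. *Fam163b* was highest in 154Q-75 among the cerebellum libraries of 154Q mice, at 17.1 CPM against 10.3 to 11.4 CPM. *Ipo5* was highest in WT-70 among the cortex libraries of WT mice, at 189 CPM against 184 to 185 CPM. *Abca7* was lowest in WT-220 among the cortex libraries of WT mice, at 23.1 CPM against 26.0 to 26.4 CPM. *Fhl2* was lowest in 154Q-71 among the cerebellum libraries of 154Q mice, at 1.67 CPM against 2.12 to 2.19 CPM. *Scn4b* was highest in 154Q-76 among the cortex libraries of 154Q mice, at 38.1 CPM against 24.6 to 25.5 CPM. *Dnajb5* was highest in 154Q-71 among the cortex libraries of 154Q mice, at 195 CPM against 154 to 158 CPM. *Ciart* was highest in 154Q-76 among the cerebellum libraries of 154Q mice, at 21.1 CPM against 16.5 to 17.03 CPM. *Igfbp5* was lowest in 154Q-69 among the cortex libraries of 154Q mice, at 104 CPM against 119 to 121 CPM. *Btbd8* was highest in WT-77 among the brainstem libraries of WT mice, at 51.8 CPM against 47.0 to 47.2 CPM. *2700038G22Rik* was lowest in WT-77 among the brainstem libraries of WT mice, at 0.496 CPM against 0.707 to 0.749 CPM. *Gli1* was highest in 154Q-75 among the striatum libraries of 154Q mice, at 2.98 CPM against 1.95 to 2.05 CPM. *Oacyl* was lowest in 154Q-76 among the striatum libraries of 154Q mice, at 0.582 CPM against 0.932 to 0.999 CPM.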

How the results depend on the processing

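The counts of genes moved with the processing, and no named gene reversed. With DESeq2, which also tested 37320 genes without edgeR's count filter, 1024 genes differed between regions (576 of the 585 among them) and 42 changed in opposite directions, while edgeR without the filter gave 502 and 15. When the series of mouse numbers entered as a covariate, 197 differed, 352 were called in cerebellum, 959 in cortex, and 3 were opposite. With counts of the first strand 10 were opposite. With all 40 WT and 154Q libraries in 1 model, 291 differed, 1169 were called in cortex, and 7 were opposite. At an adjusted p under 0.01, 188 differed, 311 were called in cerebellum, 848 in cortex, and 5 were opposite. Without the cortical libraries WT-221 and 154Q-76, chosen after the data were seen, 448 differed and 11 were opposite. Cerebellum and cortex are paired by the mouse in their labels, but same-label correlations were low (-0.12 to 0.089) and the WT-221 libraries came from different mice by *Xist* and *Ddx3y*. With the mouse as a replicate block 534 genes differed (445 of the 585 among them), all 17 opposite genes included, and 198 differed when mouse WT-221 was also left out of the block fit, an alternative added after seeing the data. The causes were not tested.

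Leaving out each library, or both libraries of each mouse, gave 253 to 627 differing genes, 383 to 733 called in cerebellum, 1160 to 1877 in cortex, and 7 to 25 opposite; the lowest counts of differing and opposite genes came without mouse WT-221, and without its cortical library alone 381 differed and 8 were opposite. For the 59 named genes under 39 alternatives, 2269 of 2301 tests of the difference were called, 32 were not, and 0 reversed; 36 genes were called under every one. The 40-library model lost 12 of them (*Penk* with the highest edgeR adjusted p, 0.649), first-strand counts lost *Chrnb2* (0.0933) among 4, and the block without mouse WT-221 lost *Rasa4* (0.0687) among 4. All 17 opposite genes kept opposite fitted signs under the 37 alternatives that fit both regions, which reuse the libraries that picked these genes. The calls in both regions were kept in 10 (*2700038G22Rik*) to 36 of the 37 alternatives. Depth limits genes such as *Oacyl*, whose cerebellar level was 0.11 to 0.40 CPM. Since no 154Q mouse is in the higher series of mouse numbers, genotype and series are only partly separable.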
